A study of Mus musculus with 39 samples.

Results

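The nucleolar ribosome biogenesis genes were 39 listed genes whose products build ribosomes in the nucleolus, and 38 of them were measured among 18194 genes on the array. Mrto4 was not analysed here. A gene was taken from the list where the platform annotation gave a probe set naming it alone, and the probe set with the highest mean over all tumours represented it. The list was not chosen from the measured values of these tumours, although it was drawn up with earlier results of the same data known. The measured members fall into 6 roles: RNA polymerase I subunits (3), nucleolar hub proteins (6), the box C/D small nucleolar ribonucleoproteins (snoRNPs, 3), the box H/ACA snoRNPs (4), small subunit assembly factors (12) and large subunit assembly factors (10).

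Expression was measured in 39 lymphomas, 1 array each, from Eµ-myc mice, which carry a Myc transgene under the immunoglobulin heavy chain enhancer that is active in the B lineage. All tumours share this genotype and 1 group, with no control, treatment, age or outcome in the labels used here, so every relation below runs across tumours and none compares groups. Mice were killed when ill or bearing lymphoma, and the tissue was flash frozen before RNA was taken. Tumours are numbered as in the labels, which do not state that they came from different mice, so a p-value here speaks only of the scatter among these samples, part of which may be technical. Values are log2 levels after RMA (robust multi-array average), and the number of arrays limits the precision.

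Ribosomes are made in the nucleolus, where RNA polymerase I transcribes the long precursor of ribosomal RNA. Small nucleolar ribonucleoproteins modify that precursor, the box C/D type by methylation and the box H/ACA type by pseudouridylation, and assembly factors fold and cut it while ribosomal proteins join. Myc is known to drive transcription of many genes of this pathway, often through the E-box CACGTG, and large nucleoli are a textbook feature of cells with high Myc.

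Promoter sequences from RefSeq (build GRCm38.p6, 250 bases before to 50 after the annotated start) matched 33 of the 38 measured members. Npm1, Fbl, Rrp12, Bop1 and Rrs1 had no entry. The palindromic E-box CACGTG, which reads the same on both strands, lay in a window of 7 of the 33 members, or 21.2%, against 10.3% of the 14369 array genes with a window and 7.15% of all 32851 windows. The 7 members were Mybbp1a, Utp20, Wdr43, Pno1, Tsr1, Pes1 and Nop2. The related motif CACGCG, searched on both strands, was found for 30.3% of members and 16.2% of array genes, and CATGCG for 12.1% and 9.52%. A match is a description of letters, not of binding. The windows of 4 members are printed 5′ to 3′, with the E-box in capitals, because their relations to Myc differ: Utp20 and Gnl3 rose with Myc in each of 3 sets of tumours, and Tsr1 and Polr1c did not in the set without tumour 2, described further on. Utp20 lies at chr10:88826765-88827064 on the minus strand and holds an E-box at base 37 after the start. Tsr1 lies at chr11:74897830-74898129 on the plus strand with an E-box at base 24. Gnl3, at chr14:31019082-31019381, and Polr1c, at chr17:46247996-46248295, both on the minus strand, have none in this window.
Utp20: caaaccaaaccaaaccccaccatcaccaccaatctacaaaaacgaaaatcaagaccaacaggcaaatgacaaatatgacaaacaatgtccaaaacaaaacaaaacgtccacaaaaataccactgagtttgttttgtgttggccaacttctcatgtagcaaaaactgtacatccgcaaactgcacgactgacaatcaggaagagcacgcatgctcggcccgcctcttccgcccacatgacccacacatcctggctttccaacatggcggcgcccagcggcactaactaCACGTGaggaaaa
Tsr1: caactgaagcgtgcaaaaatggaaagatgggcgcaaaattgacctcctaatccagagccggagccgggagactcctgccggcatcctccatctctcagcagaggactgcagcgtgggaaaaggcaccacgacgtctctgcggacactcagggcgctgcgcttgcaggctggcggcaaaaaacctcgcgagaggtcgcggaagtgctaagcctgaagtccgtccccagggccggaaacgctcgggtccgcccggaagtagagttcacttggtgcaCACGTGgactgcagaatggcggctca
Gnl3: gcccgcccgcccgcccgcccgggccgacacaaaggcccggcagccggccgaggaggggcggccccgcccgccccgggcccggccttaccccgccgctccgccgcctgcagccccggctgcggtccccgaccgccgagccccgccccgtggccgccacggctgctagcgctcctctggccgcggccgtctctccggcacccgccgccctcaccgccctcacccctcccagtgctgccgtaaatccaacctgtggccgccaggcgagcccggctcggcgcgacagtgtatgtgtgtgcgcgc
Polr1c: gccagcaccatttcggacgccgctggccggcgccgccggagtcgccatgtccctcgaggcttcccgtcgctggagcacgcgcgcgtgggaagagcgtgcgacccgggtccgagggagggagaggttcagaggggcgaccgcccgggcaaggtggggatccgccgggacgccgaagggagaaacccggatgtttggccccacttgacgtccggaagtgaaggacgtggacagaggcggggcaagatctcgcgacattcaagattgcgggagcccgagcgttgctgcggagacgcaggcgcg
These 4 were chosen to show both kinds with and without the E-box, so they give no tally. Over all 33 members with a window, 2 of the 7 with an E-box (Utp20 and Nop2) and 17 of the 26 without one rose with Myc in the set without tumour 2, a difference that was not tested.

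The label of the tissue was checked before the members were read. Pou2af1, a B cell coactivator, was under 8 in 6 tumours (tumours 5, 6, 8, 19, 23 and 26), which ranged from 3.10 to 6.81, and at least 10.59 in the other 33, with no tumour between 7 and 9. The score of 12 of 13 listed B cell markers, the mean of each marker minus its own mean, was between -3.43 and -1.27 in those 6 tumours and higher in each of the others, where it reached 0.91. Pou2af1 is itself 1 of these 12 markers, so the score is not independent of the split. The 33 tumours with Pou2af1 of at least 8 are called Pou2af1-high here. Array medians lay between 5.61 and 5.78, and arrays correlated at r = 0.889 to 0.991. The score of 7 salivary gland markers, a mean of the same kind, reached 7.88, in tumour 25, against a median of -2.04, and its r with Myc was 0.133.

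Myc itself was at 8.19 in tumour 2 and between 10.58 and 12.63 in the other 38 tumours, so tumour 2 stood apart from all others on the axis against which the members were read. Pou2af1 was high in tumour 2 (12.01) and its B cell score was 0.35, so the threshold on Pou2af1 does not remove it. Its T cell score, over 10 of 13 listed markers, was 3.40, the highest of a range that starts at -1.41, its macrophage score was 1.56, and its G2/M proliferation score was -2.53, the lowest of all tumours. In bulk tissue, fewer cells of a type and less RNA per cell cannot be told apart. Every relation to Myc is therefore given for all 39 tumours, for the 33 Pou2af1-high tumours, and for the 32 of these without tumour 2, a setting chosen after its Myc level was seen.

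Of the 38 members, 36 had their lowest level in tumour 2. The exceptions were Heatr1, a small subunit processome protein, which was lowest in tumour 8 (8.54, against 8.75 in tumour 2), and Pno1, which was lowest in tumour 23 (9.14, against 9.33). The mean over members of each level minus the gene's mean, called the member score, was lowest in tumour 2 (-1.75), followed by tumours 8 (-0.82), 6 (-0.65), 1 (-0.49) and 23 (-0.44). Tumours 6, 8 and 23 belong to the 6 with low Pou2af1. The highest member score was 0.31, in tumour 9, so the members spread much farther down than up.

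**Figure D1:**
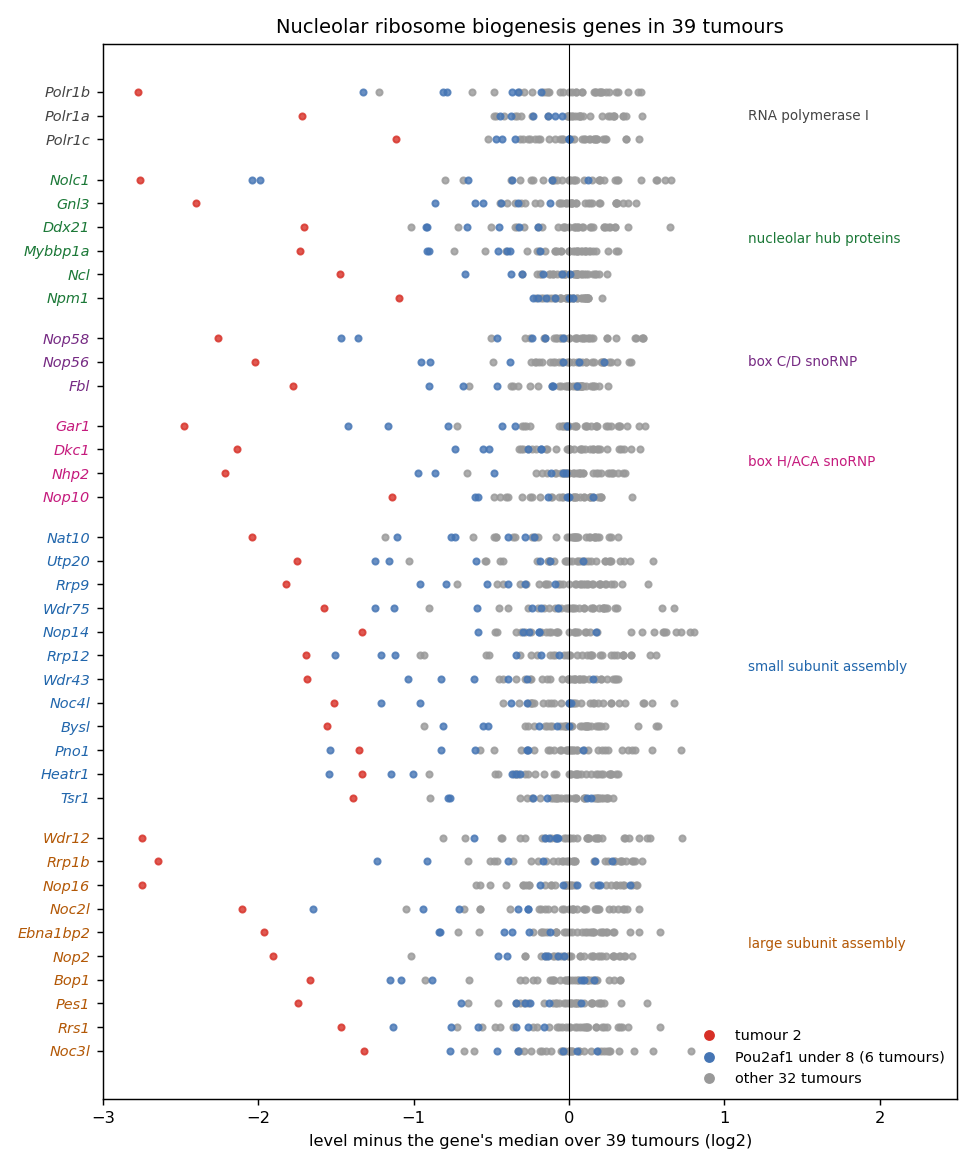
Each row is 1 of the 38 members and each point 1 of 39 tumours, plotted as the log2 level minus that gene's median, with members grouped and coloured by role. Tumour 2 (red) is the lowest point in 36 of the 38 rows, and among the 6 tumours with Pou2af1 under 8 (blue), tumours 6 and 8 are often next.

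The member that varied most was Nolc1, a chaperone of snoRNPs, with an SD of 0.71 over the 39 tumours. It was at 8.98 in tumour 2, had a median of 11.74 and reached 12.40 in tumour 9. Tumours 6 and 8 lay near the bottom as well, at 9.75 and 9.70, while every other tumour was at 10.94 or higher. Polr1b, the second-largest subunit of RNA polymerase I, followed with an SD of 0.60 and ran from 6.90 in tumour 2 through a median of 9.68 to 10.14 in tumour 30. Rrp1b, a large subunit assembly factor, had an SD of 0.57 and ran from 8.35 through 10.99 to 11.46. Gar1, a core protein of the H/ACA snoRNP, had an SD of 0.56 and ran from 9.30 through 11.78 to 12.26. Rrp12, which serves maturation and export of preribosomes, had an SD of 0.55 and ran from 6.69 through 8.39 to 8.95. All 5 were lowest in tumour 2. The steadiest member was Npm1, the abundant nucleolar chaperone nucleophosmin, with an SD of 0.21 and levels from 12.84 through 13.94 to 14.15.

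The median SD of the 38 members was 0.44 over all tumours and 0.41 over the Pou2af1-high tumours, where the medians over all genes were 0.32 and 0.29. Without tumour 2 it was 0.27, and that of all genes was 0.27. The wider spread of the members over all genes therefore rested on tumour 2 within the Pou2af1-high set.

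The first question was how each member related to Myc. Over all 39 tumours, all 38 members rose with Myc in limma (adjusted p under 0.05, Benjamini-Hochberg over 18193 genes), against 18.7% of all genes. Their median slope was 0.46 log2 units per log2 unit of Myc, beside a median of 0.01 over all genes. In the 33 Pou2af1-high tumours, all 38 again rose, against 17.9% of all genes, with a median slope of 0.42. Leaving out the 6 tumours with low Pou2af1 therefore changed no call.

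Leaving out tumour 2 did. In the remaining 32 tumours, 21 of the 38 members rose, against 5.42% of all genes, and the median slope was 0.28. Slopes were positive for 37 members, and Polr1c had the only negative one. At an unadjusted p under 0.05, 26 members had a positive slope in this fit, against 13% of all genes. With all 39 tumours but tumour 2, 35 members rose, against 15.9% of all genes. Once tumour 2 was out, the 6 tumours with low Pou2af1 did change calls: 35 members rose with them and 21 without them.

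Ranks, which give tumour 2 no extra weight, also gave fewer calls than the linear fit. By Spearman's rho with 100000 permutations, adjusted over all genes, 31 members passed over all tumours (13.2% of all genes), 14 in the Pou2af1-high tumours (3.62%) and 8 without tumour 2 (0.951%), all with a positive rho. The members' median rho was 0.58, 0.47 and 0.41 in these 3 sets and their median Pearson r was 0.82, 0.83 and 0.49. The median r of all genes was 0.05, 0.11 and 0.05. In the 32 tumours, r was also read without tumours 1 and 18, the 2 farthest from the median Myc level. For the 21 members that rose there in limma, r then lay between 0.15 (Bop1, 0.53 with both tumours) and 0.70 (Gnl3). Of these members, only Rrp1b did not have a lower r than with both tumours (0.63 and 0.62).

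**Figure D2:**
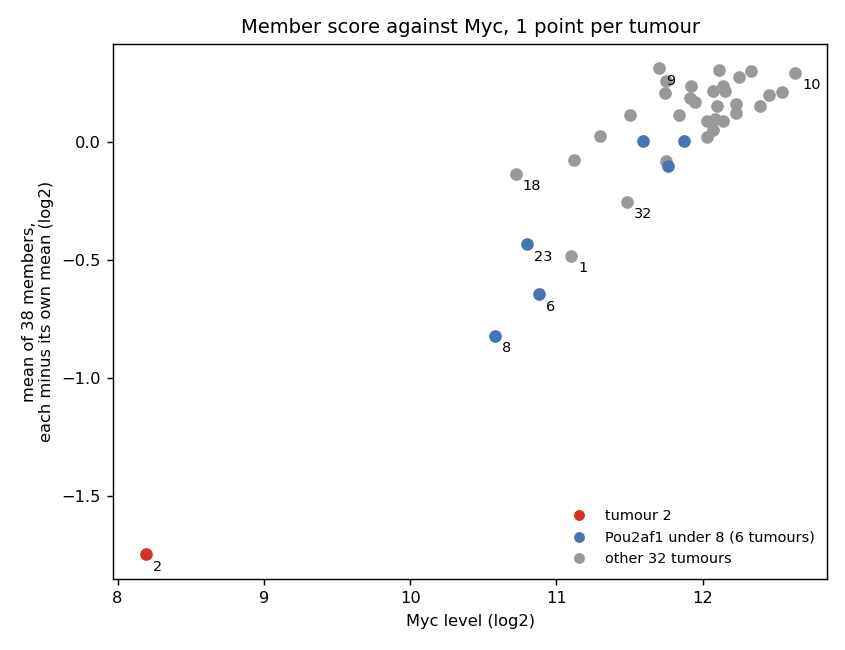
Each point is 1 tumour, with its Myc level (log2) on the x axis and the mean of the 38 members, each minus its own mean, on the y axis (log2). Tumour 2 sits alone at Myc 8.19 and a score of -1.75, and tumours 1, 6, 8 and 23 lie between -0.82 and -0.44 with Myc between 10.58 and 11.10.

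The RNA polymerase I subunits, which transcribe the ribosomal RNA precursor, split. Polr1b had the second-steepest slope of all members in the Pou2af1-high tumours, 0.68 ± 0.06 (SE, limma adjusted p = 3.02e-10), and 0.53 ± 0.11 without tumour 2 (adjusted p = 0.00127). Polr1a, the largest and catalytic subunit, ran from 7.94 in tumour 2 through a median of 9.66 to 10.13 in tumour 3. It rose by 0.44 ± 0.05 and, without tumour 2, by 0.36 ± 0.09 (adjusted p = 0.00690). One of the other probe sets of Polr1a tracked the one used at r = 0.204 over all tumours. With the mean of all its probe sets, Polr1a still rose over all tumours and in the Pou2af1-high tumours, both of which hold tumour 2. In the 32 tumours that mean was not fitted, and the lowest r of another probe set with the one used was -0.168. Polr1c, a subunit shared with RNA polymerase III, had the smallest slope of all members, 0.18 ± 0.06 (adjusted p = 0.0212), and its slope was -0.11 ± 0.09 without tumour 2 (adjusted p = 0.486). Polr1c ran from 9.35 in tumour 2 through 10.46 to 10.91 in tumour 13. Its lowest level after tumour 2 was 9.93 in tumour 10, the tumour with the highest Myc level of all (12.63).

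All 3 box C/D proteins, which assemble around guide RNAs and methylate ribosomal RNA, rose with Myc in each of the 3 sets of tumours. Fbl, the methyltransferase fibrillarin, was at 11.21 in tumour 2, had a median of 12.98 and reached 13.23 in tumour 10. Tumours 8, 6 and 1 followed tumour 2 at 12.08, 12.30 and 12.34. Fbl rose by 0.43 ± 0.03 (adjusted p = 1.97e-11) in the Pou2af1-high tumours and by 0.33 ± 0.06 without tumour 2 (adjusted p = 0.000317). In those 32 tumours its Pearson r was 0.73 and its rho 0.63 (permutation p = 1e-05, the smallest these draws can give, and 0.00015, adjusted 0.002 and 0.021), and r was 0.62 without the 2 tumours farthest from the median Myc level, 1 and 18. Nop56, a scaffold protein of the particle, ran from 10.54 through 12.57 to 12.96 and had slopes of 0.46 ± 0.04 and 0.26 ± 0.07. Nop58, its partner, ran from 10.41 through 12.67 to 13.15 and had slopes of 0.52 ± 0.05 and 0.27 ± 0.08. Adjusted p without tumour 2 was 0.0133 for Nop56 and 0.0268 for Nop58.

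Of the 4 box H/ACA proteins, which convert uridines to pseudouridines, 3 rose without tumour 2. Dkc1, the pseudouridine synthase dyskerin, was at 10.39 in tumour 2, had a median of 12.52 and reached 12.98 in tumour 15. Its slope was 0.49 ± 0.05 in the Pou2af1-high tumours and 0.28 ± 0.07 without tumour 2 (adjusted p = 0.00967). Gar1 had slopes of 0.58 ± 0.05 and 0.34 ± 0.09 (adjusted p = 0.00827 without tumour 2). Nop10, the smallest protein of the particle, ran from 11.99 through 13.13 to 13.53. Its slope was 0.29 ± 0.04 with tumour 2 and 0.28 ± 0.07 without it (adjusted p = 0.00955), so tumour 2 hardly weighed on its size. Nhp2 ran from 10.61 through 12.83 to 13.19, with a slope of 0.49 ± 0.05 that was 0.21 ± 0.07 without tumour 2 and no longer passed (adjusted p = 0.0591).

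Among the 6 hub proteins, 3 rose without tumour 2. Gnl3, the GTPase nucleostemin, had the relation to Myc with the smallest adjusted p of all members. It was at 9.69 in tumour 2, next at 11.23 in tumour 8, had a median of 12.09 and reached 12.52 in tumour 25. Its slope was 0.58 ± 0.04 in the Pou2af1-high tumours (adjusted p = 3.71e-12) and 0.41 ± 0.06 without tumour 2 (adjusted p = 0.000113). In the 32 tumours r was 0.77 and rho 0.64 (permutation p = 1e-05 and 7e-05, adjusted 0.002 and 0.015), and r was 0.70 without tumours 1 and 18. Nolc1 had the largest slope of the hub proteins, 0.64 ± 0.07, which was 0.37 ± 0.12 without tumour 2 (adjusted p = 0.0459). Ncl, nucleolin, an abundant protein of ribosomal RNA transcription and processing, ran from 12.06 through 13.54 to 13.79 and rose by 0.33 ± 0.03 and 0.16 ± 0.05 (adjusted p = 0.0240). Npm1 had the smallest slope of this group, 0.23 ± 0.03, and 0.08 ± 0.04 without tumour 2 (adjusted p = 0.202). The helicase Ddx21 and Mybbp1a, a regulator of RNA polymerase I, did not pass without tumour 2 either, with slopes of 0.31 and 0.14.

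Small subunit assembly held the largest share of members that no longer passed without tumour 2, 8 of 12. The 4 that rose were Nat10, Utp20, Rrp9 and Wdr75. Nat10, an RNA acetyltransferase of the small subunit, was at 7.15 in tumour 2 and 8.00 in tumour 1, with a median of 9.19 and a highest level of 9.50. Its slope was 0.53 ± 0.05 with tumour 2 and 0.53 ± 0.10 without it (adjusted p = 0.000392). The other probe set of Nat10 had r = -0.373 with the one used over all tumours. Its median in the 32 tumours was 5.43, below the array medians, so it says little about Nat10. Utp20, a scaffold protein of the processome, had a median of 10.27 and a highest level of 10.81, and its lowest levels were those of tumours 2 (8.51), 8 (9.02) and 6 (9.11). It had slopes of 0.47 ± 0.06 and 0.48 ± 0.10 (adjusted p = 0.00218 without tumour 2). Rrp9, a protein of the processome's own snoRNP, and Wdr75 had slopes of 0.33 and 0.32 without tumour 2. Tsr1, a late small subunit factor, had the smallest slope of the group, 0.27 ± 0.06, and 0.04 ± 0.10 without tumour 2 (adjusted p = 0.868). Its level was 9.95 in tumour 2, 10.45 in tumour 14, 11.34 at the median and 11.63 at the highest, and tumour 14 had a Myc level of 12.39. Rrp12 had slopes of 0.37 ± 0.08 and 0.16 ± 0.15 (adjusted p = 0.562). The other 6 members without a call had slopes between 0.05 (Bysl) and 0.33 (Nop14) in the 32 tumours.

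Large subunit assembly gave 6 of 10 members that rose without tumour 2: Wdr12, Rrp1b, Noc2l, Ebna1bp2, Nop2 and Bop1. Wdr12, which forms the PeBoW complex with Pes1 and Bop1, was at 7.99 in tumour 2 and next at 9.93 in tumour 32, with a median of 10.74 and a highest level of 11.46 in tumour 36. It had the steepest slope of all members in the Pou2af1-high tumours, 0.68 ± 0.06 (adjusted p = 2.50e-10), and 0.52 ± 0.11 without tumour 2 (adjusted p = 0.00122). One of the other probe sets of Wdr12 tracked the one used at r = 0.452 over all tumours and 0.341 in the 32. For Ebna1bp2 the lowest such values were 0.366 and 0.308. Rrp1b had slopes of 0.63 ± 0.06 and 0.44 ± 0.10 (adjusted p = 0.00399). Noc2l had a slope of 0.55 ± 0.06 that stayed at 0.53 ± 0.10 (adjusted p = 0.000880). Bop1 had 0.40 and 0.32, and Pes1, its partner, 0.40 and 0.25 (adjusted p = 0.0600 without tumour 2). The other probe set of Pes1 tracked the one used at r = 0.161 over all tumours and 0.0186 in the 32. Noc3l had the smallest slope of the group, 0.27 ± 0.07, and 0.07 ± 0.13 without tumour 2 (adjusted p = 0.799). It ran from 6.82 in tumour 2 through 8.14 to 8.92 in tumour 12.

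**Figure D3:**
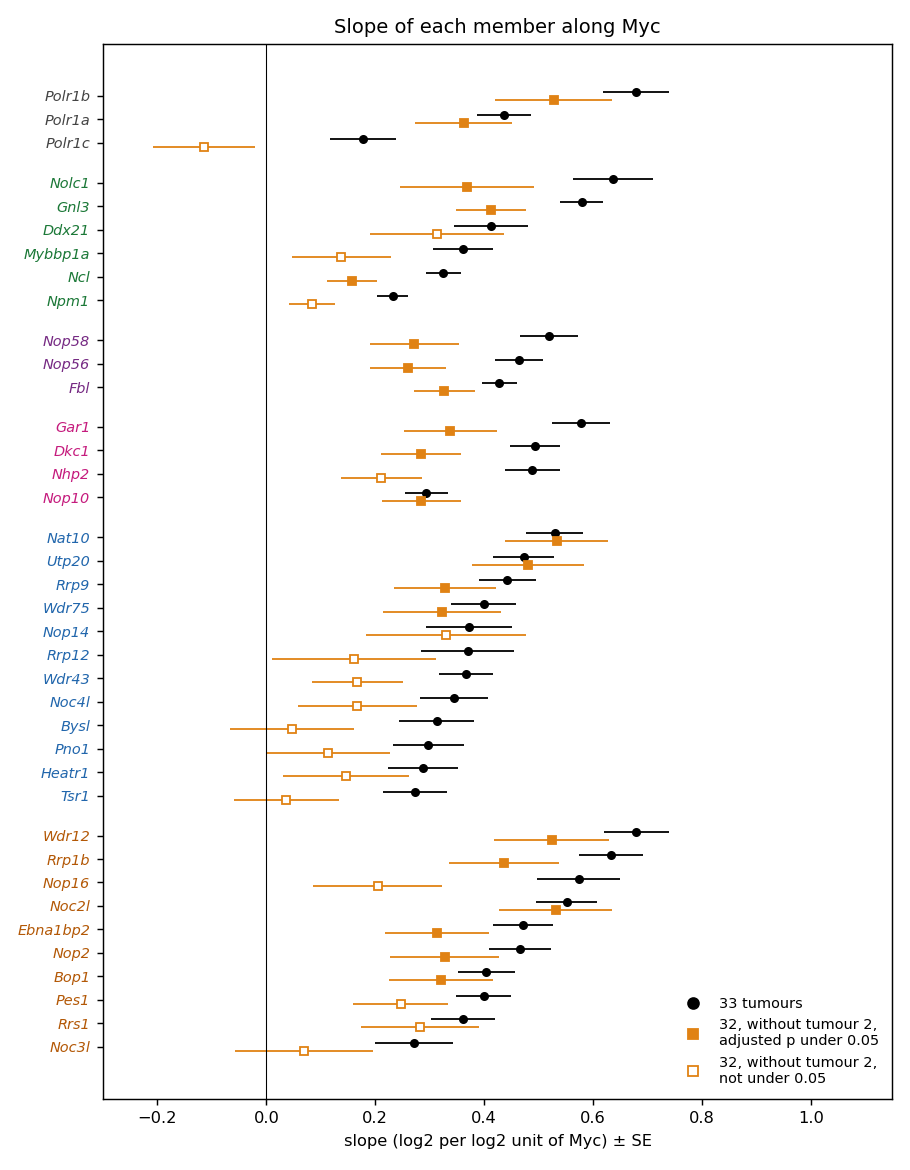
Slope of each member along Myc (log2 per log2 unit, with SE) in the 33 Pou2af1-high tumours (black) and without tumour 2 (orange, filled where the limma adjusted p was under 0.05). Of the 38 orange points, 21 are filled, all black points are right of 0, and Polr1c is the only member whose orange point is left of 0.

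**Figure D4:**
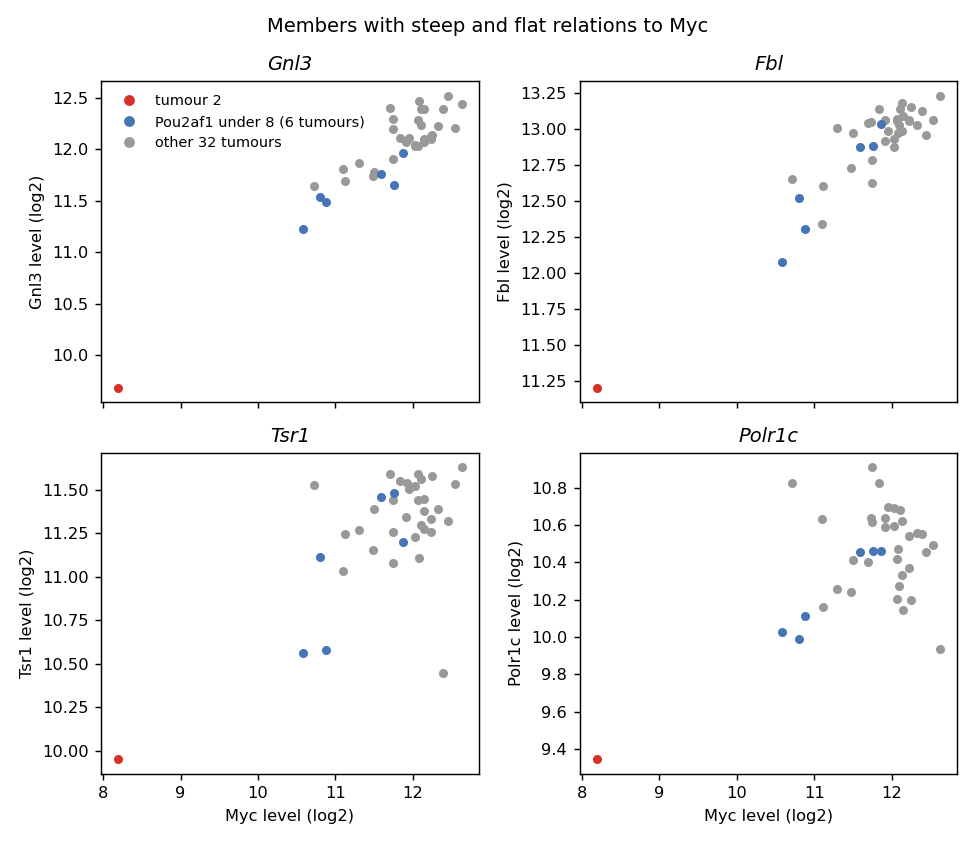
Log2 level of Gnl3, Fbl, Tsr1 and Polr1c against the log2 Myc level, 1 point per tumour, on a separate y axis for each gene. Gnl3 and Fbl climb within the grey tumours (r = 0.77 and 0.73 over the 32), while Tsr1 and Polr1c do not (r = 0.07 and -0.22), with tumour 2 (red) lowest in all 4.

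Other measures moved with Myc in the same tumours. In the 32 tumours the T cell score fell with Myc (r = -0.66, rho = -0.63, permutation p = 9e-05 and 0.00012, adjusted over 9 scores 0.00081 and 0.00067; r = -0.64 without tumours 1 and 18). The score of 9 plasmacytoid dendritic cell markers also fell with Myc (r = -0.47, rho = -0.63, adjusted permutation p = 0.032 and 0.00067). The G2/M score, over 18 of 19 listed cell division genes, had r = 0.49 and rho = 0.40 (adjusted permutation p = 0.032 and 0.070), and r = 0.27 without tumours 1 and 18. The B cell score had r = 0.20 (adjusted permutation p = 0.353).

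Member calls were fewer when the G2/M score, or the T cell score together with macrophage, erythroid and stroma scores, entered the fit. The plasmacytoid dendritic and B cell scores entered no fit. With the G2/M score as a covariate and without tumour 2, 7 members rose with Myc, against 1.09% of all genes: Fbl, Dkc1, Gnl3, Nat10, Wdr12, Rrp1b and Noc2l. Gnl3 kept a slope of 0.43 ± 0.07 (adjusted p = 0.00217) and Wdr12 one of 0.54 ± 0.12 (adjusted p = 0.0119), both within 1 SE of their slopes without the covariate. With T cell, macrophage, erythroid and stroma scores as covariates and without tumour 2, 0 members passed in limma, against 0.0165% of all genes. At an unadjusted p under 0.05, 10 members had a positive slope in that fit, against 6.05% of all genes, and 33 of the 38 slopes were positive with a median of 0.14. These covariates share variation with Myc, and whether cell division or other cells account for any member's relation to Myc was not tested.

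The next question was how the members related to the G2/M score itself. All 38 rose with it over all tumours (19.9% of all genes) and over the Pou2af1-high tumours (19% of all genes). Tumours 1, 2, 6 and 8 formed a low cluster of G2/M scores, from -2.53 to -1.06, and the other 35 tumours lay between -0.54 and 0.63. Without tumour 2, 21 members rose in the Pou2af1-high set (13.3%), and without tumours 1 and 2, 4 did (5.09%). Those 4 were Fbl (slope 0.54 ± 0.11 per unit of score, adjusted p = 0.00328), Nat10 (0.83 ± 0.19, 0.00525), Polr1b (0.82 ± 0.20, 0.00895) and Nop10 (0.54 ± 0.16, 0.0339). Nat10, Polr1b and Nop10 lie on chromosome 2, as do Aurka, Bub1, Bub1b, Nusap1, Tpx2 and Ube2c of the score itself. Tumour 12, with the lowest score in that fit (-0.21), had a median of -0.37 over chromosome 2. Whether the shared chromosome enters these slopes was not tested. With Myc as a covariate, 23 members rose over all tumours (9.88%) and 16 over the Pou2af1-high tumours (7.15%).

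Cdkn2a was examined because it encodes Arf, a nucleolar protein known to restrain ribosome production, and because its level ran from 4.14 to 12.17 in these tumours. Nop14, a small subunit processome protein, was the only member that rose with Cdkn2a, against 2.4% of all genes over all tumours and 1.56% in the Pou2af1-high set. A count of 1 among 38 members is near these shares, so it is no result about the members as a set. Nop14 was at 8.30 in tumour 2, 9.05 in tumour 8, 9.64 at the median and 10.44 in tumour 17. Its slope was 0.11 ± 0.02 log2 units per log2 unit of Cdkn2a in both sets (adjusted p = 0.00491 over all tumours and 0.0116 in the Pou2af1-high set). Its binding partner Noc4l had 0.08 ± 0.02 (adjusted p = 0.0601) over all tumours. Without tumour 2, Noc4l, Wdr43 and Dkc1 also rose over all tumours, which made 4 members (2.83% of all genes). In the Pou2af1-high set Noc4l joined Nop14, which made 2 (2.09%).

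Members were then compared with each other. Over the 703 pairs, the median Pearson r was 0.76 over all tumours and 0.77 over the Pou2af1-high tumours, where the medians over pairs of all genes were 0.01 and 0.01. Without tumour 2 it was 0.43, with 41 pairs below 0, and after regression on Myc it was 0.30. All pairs share the same arrays and their normalization. Pairs within 1 complex (23 pairs) had a median r of 0.47 in the 32 tumours and other pairs one of 0.43.

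The median r between subunits varied from complex to complex in the 32 tumours. It was 0.62 for the 3 PeBoW pairs, 0.54 for the 3 box C/D pairs and 0.08 for the 3 RNA polymerase I pairs, of which Polr1a with Polr1b had the highest r (0.47). For the 6 pairs of processome proteins Utp20, Heatr1, Wdr43 and Wdr75 it was 0.40, with single pairs from -0.12 to 0.69. For the 6 box H/ACA pairs it was 0.38, with single pairs from 0.18 to 0.74. Noc2l with Noc3l had r = 0.18. These medians rest on few pairs, and differences between complexes were not tested. The closest pair of all was Fbl with Nat10 (r = 0.90), followed by Gnl3 with Dkc1 (0.87), Wdr75 with Ebna1bp2 (0.85) and Nop14 with Noc4l (0.84). The lowest was Polr1c with Pno1 (-0.42), and the 8 lowest pairs all contained Polr1c. Polr1c also had the smallest Myc slope, and its 2 probe sets moved together (r = 0.742 in these tumours).

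Several close pairs lay on the same chromosome: Nop14 and Noc4l on chromosome 5, Nop58 and Wdr75 on chromosome 1 (r = 0.82), and Polr1b and Nat10 on chromosome 2 (0.82). In the 32 tumours the median r was 0.59 over the 45 pairs on 1 chromosome and 0.42 over the 658 pairs on different ones. Only 1 of the 45 was also a pair within a complex. This pattern was followed after these values were seen, and no test was made of it.

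For each member and tumour, the deviation was the level minus the gene's median in the 32 tumours, minus the mean of that quantity over the 38 members. It was set beside the median of up to 20 neighbouring genes on the same chromosome (10 on each side, other genes with a mean over 8), each minus its own median. No mean over the tumour was taken from the neighbour or chromosome medians, unlike from the members. Over all 1216 pairs of a member and a tumour, the 2 values correlated at r = 0.47, with tumours and neighbours shared between pairs. In the 48 pairs where the neighbours stood at -0.3 or lower, the member's deviation was below 0 in 79.2%, with a median of -0.33. In the 34 pairs where they stood at 0.3 or higher, it was above 0 in 91.2%, with a median of 0.30. Over all pairs, 49.1% were below 0. Tumour 1 was an exception: its medians were between -0.42 and -0.25 on 13 chromosomes that hold members, and on 5 of these the members' median deviation was above 0. In its 16 pairs with neighbours at -0.3 or lower, 50% of the deviations were below 0. The members and their neighbours were centred differently, and whether that sets tumour 1 apart was not tested. Without tumour 1, a setting chosen after this was seen, 93.8% of 32 such pairs were below 0, with a median of -0.44, and r over all pairs was 0.52.

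Members on chromosome 19 were low together in 2 tumours. In tumour 3 the deviations of Rrp12, Nolc1 and Noc3l were -1.003, -0.69 and -0.60, and the median of 243 other genes on chromosome 19 was -0.57. In tumour 25 they were -1.11, -0.33 and -0.39, and the chromosome's median was -0.56. Rrp12, at 7.45 and 7.43 in these 2 tumours, was thereby lower than in any other of the 32, while their Myc levels were 11.84 and 12.45.

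Other chromosomes gave shifts of similar size. On chromosome 13, Heatr1 and Nop16, a large subunit factor, deviated by -0.65 and -0.53 in tumour 17 and by -0.57 and -0.64 in tumour 24, where the chromosome's medians were -0.64 and -0.57. On chromosome 2, Polr1b, Nat10, Nop10 and Nop56 deviated by -0.66, -0.63, -0.55 and -0.40 in tumour 12, where the chromosome's median was -0.37. Upward, the 5 members on chromosome 1 (Ncl, Nop58, Rrs1, Wdr75 and Wdr12) deviated by 0.05 to 0.48 in tumour 36, beside a chromosome median of 0.41. Nop14 and Noc4l on chromosome 5 deviated by 0.70 and 0.68 in tumour 21, beside a median of 0.60.

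The low level of Tsr1 in tumour 14 had company in its neighbourhood but not over its chromosome. Tsr1 deviated by -0.95 and Mybbp1a, also on chromosome 11, by -0.78, and the medians of their 20 neighbours were -0.75 and -0.75. The median over 554 genes of chromosome 11 was -0.04 in that tumour. The second probe sets of Tsr1 and Mybbp1a were low there as well, at -0.76 and -0.95 from their own medians. The lowest deviation of all, Ddx21 in tumour 30 (-1.16), was different: its neighbours were at 0.01 and its second probe set at -0.01, so it rests on 1 probe set.

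**Figure D5:**
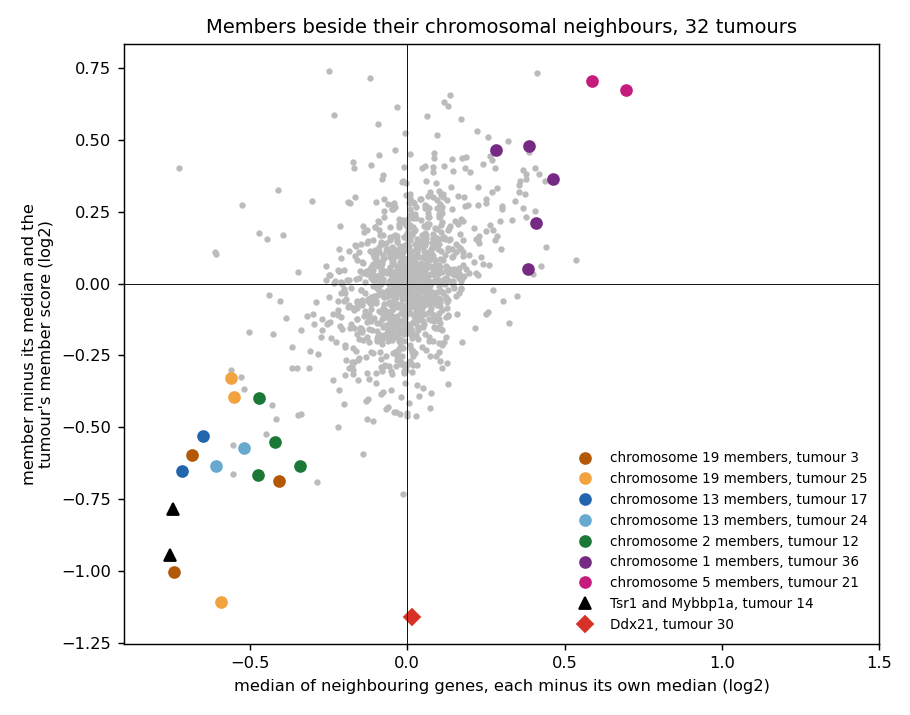
Each point is 1 member in 1 of the 32 tumours (1216 points), with the median of up to 20 neighbouring genes on the x axis and the member's deviation on the y axis (both log2). Members on chromosomes 19, 13 and 2 are low together with their neighbours in the coloured tumours, those on chromosomes 1 and 5 are high together, and Ddx21 in tumour 30 (-1.16) is low beside neighbours at 0.01.

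Other genes of the pathway were read from a list of 97 ribosome biogenesis genes outside the members, of which 94 were measured. Over all tumours 86 of them rose with Myc and 1 fell, and in the Pou2af1-high tumours 82 rose, beside 18.7% and 17.9% of all genes that rose, and 17.2% that fell over all tumours. In the 32 tumours, 34 rose and 1 fell, beside 5.42% and 6.65% of all genes. The largest slopes in the Pou2af1-high tumours were those of Pop1 (0.66 ± 0.11), a protein of the RNase P and MRP enzymes, Rrp15 (0.615 ± 0.06), Ppan (0.61 ± 0.06), Rpf2 (0.59 ± 0.06), which brings a ribosomal RNA into the large subunit, and Lyar (0.58 ± 0.08). Without tumour 2, Pop1 stood at 0.66 ± 0.19 (limma adjusted p = 0.0223), Rrp15 at 0.45 ± 0.10 (0.00224), Ppan at 0.345 ± 0.10 (0.0275), Rpf2 at 0.32 ± 0.10 (0.0342) and Lyar at 0.36 ± 0.13 (0.0711). Nsa2, a large subunit factor, was the gene that fell, with a slope of -0.14 ± 0.05 over all tumours (adjusted p = 0.0381) and of -0.30 ± 0.10 in the 32 tumours (adjusted p = 0.0491). In the Pou2af1-high tumours its slope was -0.11 ± 0.06 and did not pass (adjusted p = 0.160).

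The ribosomal proteins, which are made in the cytoplasm and join the precursor in the nucleolus, had a median Myc slope of 0.02 over 42 genes, both over all tumours and in the Pou2af1-high set, where that of the members was 0.46 and 0.42. Of the 42, 12 rose over all tumours and 11 in the Pou2af1-high set, beside 18.7% and 17.9% of all genes. Without tumour 2, 1 rose and 3 fell over all tumours (15.9% and 16.8% of all genes), and in the Pou2af1-high set 0 rose and 0 fell in limma (5.42% and 6.65%), with a median slope of -0.02. At an unadjusted p under 0.05, 1 of them had a positive and 2 a negative slope in that last fit. The 2 lists were not tested against each other.

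Among genes outside both lists, the 10 that followed the member score most closely in the Pou2af1-high tumours had Pearson r between 0.940 and 0.964. In order they were Timm8a1, a chaperone of mitochondrial import, Tfdp1, the partner of E2F factors, Rcc1, the exchange factor of Ran, Atad3a, Aatf, the mitochondrial chaperonin Hspd1, Bend3, the exosome subunit Exosc2, Timm9 and Cdca8. Without tumour 2 the first was Mrps5, a mitochondrial ribosomal protein (r = 0.880), and 4 of the 10 named above were again among the closest 10: Timm8a1 (0.871), Aatf (0.863), Rcc1 (0.847) and Atad3a (0.842). Within the members, Utp20 (0.861) and Nat10 (0.847) lay closest to the score in those 32 tumours, a score that holds them.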

How the data were processed

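Tumour RNA was labelled with biotin and hybridised to 1 array each. Per the submitters' processing notes, which name affy and RMA, the deposited values are log2 levels per probe set. Neither tool's version is given in the sources used here. RMA corrects background, gives all arrays the same distribution and summarises probes, which hides any shift common to all genes.

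Of 45101 probe sets, 34958 named 1 gene, 932 several and 9211 were not listed. The highest mean represented each of 18194 genes. Every gene was fitted on Myc, on the G2/M score or on Cdkn2a with limma 3.58.1 (lmFit, eBayes with trend, R 4.3.3), 2-sided, at an adjusted p of 0.05 (Benjamini-Hochberg over all genes). The regressor's genes were left out of its own fit. Pearson and Spearman permutation tests used 100000 draws (numpy 2.4.6, scipy 1.17.1). Clusters were sought with mclust 6.1.1. The fits were also run on simulated data with independent noise for each gene. The members here moved together across tumours, so that run does not show how many false calls arise in these data.

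Members, lists and tests were chosen with earlier results of these data known. Alternatives were another probe set rule, a filter on dim genes, left-out tumours, covariates (G2/M, other cells, RNA quality by the 3 prime minus 5 prime control difference) and ranks. Named by rule, in the Pou2af1-high fit, were per role the 2 largest and the 1 smallest slope, the members of the 3 smallest roles, the 5 largest SDs, the 5 largest and any negative called slopes of the other list, and the 10 closest genes. Other named genes were chosen after their values were seen. Promoters came from RefSeq tables of GRCm38.p6, and gene order along chromosomes from a RefSeq gene table.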

Additional observations from a re-analysis of the deposited data

How the results depend on the processing

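No paired analysis was possible because all tumours form 1 group. Settings without tumour 2, and those without tumour 1, were chosen after seeing the data. All 38 member calls along Myc stayed in place with the other probe set rule, the filter on dim genes and the RNA quality covariate. This held over all tumours and in the Pou2af1-high set, both of which hold tumour 2. Without tumour 2 these settings were not fitted, so they say nothing about the 21 members that rose in the 32 tumours. The filter kept all 38 members and cannot change a member's slope, so it could alter only their p-values.

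Each count is followed by the share of all genes called in the same fit. Settings that changed a count little are not all listed. Over all tumours, members that rose along Myc numbered 12 with the G2/M covariate (1.74%) and 28 with other-cell scores (4.01%). They numbered 33 without tumours 2 and 8 (13.1%) and 26 without tumours 2, 6 and 8 (9.62%). With the G2/M covariate, 8 rose in the Pou2af1-high set (0.923%). In that set they numbered 10 with other-cell scores (0.418%), 18 without tumours 2 and 18 (3.11%), 21 without tumour 2 (5.42%), 14 by rank (3.62%), and, without tumour 2, 7 with the G2/M (1.09%) and 0 with the other-cell covariates (0.0165%, with 10 members at an unadjusted p under 0.05 in limma). Calls of the other list in either direction over all tumours were 11 with G2/M (3.59%), 45 with other-cell scores (6.1%) and 53 without tumours 2, 6 and 8 (18.9%). In the Pou2af1-high set they were 7 with G2/M (2.71%), 5 with other-cell scores (0.671%), 23 without tumours 2 and 18 (7.28%), 35 without tumour 2 (12.1%), 23 by rank (7.87%), and, without tumour 2, 2 with G2/M (3.56%) and 0 with other-cell scores (0.0275%). Along the G2/M score, members that rose over all tumours numbered 23 with Myc as a covariate (9.88%) and 16 without tumours 1, 2, 6 and 8 (11.6%). In the Pou2af1-high set they numbered 16 with Myc (7.15%), 21 without tumour 2 (13.3%) and 4 without tumours 1 and 2 (5.09%). Along Cdkn2a, all tumours gave 3 members with Myc as a covariate (2.59%), 2 with the filter on dim genes (5.44%), 4 without tumour 2 (2.83%) and 3 without tumours 2, 6 and 8 (2.52%). The Pou2af1-high set gave 2 with Myc (2.62%) and 2 without tumour 2 (2.09%).

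The median r between members over all tumours was 0.48 without tumours 2, 6 and 8, 0.63 without tumour 2 and 0.37 after regression on Myc, and in the Pou2af1-high set it was 0.43 without tumour 2 and 0.38 after regression. Their median SD in the same order was 0.275, 0.33 and 0.26 over all tumours, and 0.27 and 0.24 in the Pou2af1-high set.

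Slopes along Myc that turned negative, none of them called, were these. With the G2/M covariate over all tumours they were -0.017 for Bysl, -0.117 for Heatr1 and -0.033 for Rrp12. In the Pou2af1-high set with that covariate they were -0.10 for Bysl, -0.111 for Heatr1, -0.037 for Noc3l, -0.035 for Pno1 and -0.0385 for Rrp12. Without tumour 2 as well they were -0.152 for Bysl, -0.088 for Heatr1, -0.078 for Noc3l, -0.057 for Pno1, -0.082 for Polr1c, -0.055 for Rrp12 and -0.043 for Tsr1. With other-cell covariates and no tumour 2 they were -0.084 for Mybbp1a, -0.119 for Pno1, -0.060 for Polr1c, -0.096 for Rrp12 and -0.148 for Tsr1. Polr1c stood at -0.018 without tumours 2, 6 and 8, at -0.055 without tumours 2 and 18 and at -0.115 without tumour 2. The cause of these changes was not tested.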
